A study of Arabidopsis thaliana with 20 samples.

Results

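The levels of 10 genes of gibberellin metabolism and perception, chosen by their gene codes, were followed in grafted Arabidopsis thaliana roots: 3 synthesis oxidases (GA20OX1, GA20OX2 and GA3OX1), 5 inactivating oxidases (GA2OX1, GA2OX2, GA2OX6, GA2OX7 and GA2OX8) and 2 receptors (GID1A and GID1B). They are 10 of the 32833 gene codes in the deposited count table, and 9 of them passed the filter on low counts; GA2OX7 did not. RNA was sequenced from whole roots of plants joined from a shoot and a root of either genotype, Col-0 wild type (WT) or cpd, which is mutated in the brassinosteroid synthesis gene CPD. All groups are named shoot first. WT/WT and WT/cpd had a wild-type shoot on a WT or a cpd root, and cpd/WT and cpd/cpd had a cpd shoot on a WT or a cpd root, with 5 libraries in each group and 20 in all. Every library came from a pool of 3 roots. Neither the cpd allele nor the age of the plants is stated in the labels used here, and nothing says whether the pools came from separate plates or days, so p-values measure the spread between pools, which may be technical. The titles of the cpd/cpd samples do not call them grafted, unlike all other titles, although the design text describes that combination as a graft; a difference in grafting and the genotype cannot be told apart in comparisons that use cpd/cpd.

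Gibberellins are diterpenoid hormones that promote growth. As background, GA 20-oxidases and GA 3-oxidases carry out the last steps that make the active forms, and GA 2-oxidases inactivate active forms or their precursors; GA2OX7 and GA2OX8 act on the longer-chain precursors. The GID1 proteins are soluble receptors that, with gibberellin bound, lead DELLA proteins, repressors of growth genes, to degradation. Brassinosteroids are steroid hormones whose transcription factors of the BZR1 family bind DELLA proteins, and in roots both hormones promote cell elongation.

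Library totals ran from 13417029 to 32337043 counts. Levels are given as CPM, counts per 1 M of the scaled library total, and a gene was called when its adjusted p (edgeR's quasi-likelihood test with Benjamini-Hochberg adjustment over 20862 genes) was under 0.05. CPD followed the root genotype in every library: it lay between 34.1 and 51.7 CPM in WT roots and between 2.3 and 4.47 CPM in cpd roots. All 8 root tissue markers were detected, with summed levels of 7840 to 15300 CPM over the 20 libraries. Nearly all of this sum was PYK10, at 7660 to 15100 CPM, so the sum does not describe the other 7 markers. CASP1, a root marker of the endodermis, fell with a cpd root under a WT shoot (log2 fold change -1 ± 0.18, adjusted p = 0.0028) and in the whole cpd graft (-0.70 ± 0.18, adjusted p = 0.024), from 80.5 to 126 CPM in WT/WT to 41.2 to 63.2 in WT/cpd and 33.9 to 72.8 in cpd/cpd. The other 7 root markers were not called in these comparisons; CASP1 and PYK10 were called higher in cpd/WT than in WT/cpd. The part of this shift of CASP1 in the results that follow was not tested. The 8 shoot tissue markers were detected too, at 527 to 1050 CPM summed in WT/WT, 800 to 1640 in WT/cpd, 1130 to 1850 in cpd/WT, with 988 to 2050 in cpd/cpd. None of the root or shoot markers was at 0 in any library. All 8 shoot markers are nuclear photosynthesis genes, so RNA of shoot tissue and their expression in the root itself cannot be told apart. In each group 1 library correlated least with the others, replicate 4 of WT/WT and of cpd/cpd and replicate 2 of WT/cpd and of cpd/WT. In whole roots, fewer cells of a type and less RNA per cell cannot be told apart.

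The promoter sequences of 3 genes are shown: GA2OX6 and GA2OX1 are the inactivating enzymes whose transcripts rose, and GID1A alone among the 10 genes held a match to the searched motifs. Each is the 250 bases before the RefSeq gene start in TAIR10.1, 5′ to 3′ on the gene's strand, at chr1:486550-486799 (plus strand) for GA2OX6, chr1:29513101-29513350 (minus strand) for GA2OX1 and chr3:1430113-1430362 (plus strand) for GID1A. Capitals mark the motif match.
GA2OX6: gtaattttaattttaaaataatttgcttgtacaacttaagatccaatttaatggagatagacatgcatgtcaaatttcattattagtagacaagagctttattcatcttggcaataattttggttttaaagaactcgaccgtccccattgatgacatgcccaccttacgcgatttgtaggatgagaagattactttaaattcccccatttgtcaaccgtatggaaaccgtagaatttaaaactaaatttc
GA2OX1: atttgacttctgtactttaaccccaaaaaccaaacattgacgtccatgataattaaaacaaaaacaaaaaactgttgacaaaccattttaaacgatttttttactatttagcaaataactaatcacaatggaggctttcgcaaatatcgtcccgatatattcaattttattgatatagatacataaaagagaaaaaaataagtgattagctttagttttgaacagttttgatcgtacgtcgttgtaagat
GID1A: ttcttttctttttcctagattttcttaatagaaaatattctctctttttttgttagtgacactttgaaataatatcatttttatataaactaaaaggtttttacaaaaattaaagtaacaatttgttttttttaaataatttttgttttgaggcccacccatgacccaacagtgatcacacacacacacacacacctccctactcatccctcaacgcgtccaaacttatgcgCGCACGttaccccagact
The searched letters, on both strands, were CGTGCG and CGTGTG, known as the brassinosteroid response element bound by BZR1, and CACGTG, known as the G-box. The G-box and either element can share the letters CGTG. The GID1A match was CGTGCG on the reverse strand, printed as CGCACG, 18 to 13 bases before the gene start. No other annotated gene reached into any of the 10 windows. Among 27443 promoters of the same length, 1.57% held CGTGCG, 5.37% held CGTGTG and 6.49% held CACGTG. A match is a description of letters and not a bound site, and the 9 windows without one say nothing of the factor.

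The members differed widely in level. On the scale of mean CPM per kilobase of the longest transcript, GA3OX1 stood at 29.4 in WT/WT, GID1A at 25.2 and GID1B at 21.5. GA2OX6 was the highest of the inactivating enzymes at 8.69 per kilobase, ahead of GA2OX2 at 4.23, GA2OX8 at 2.05 and GA2OX1 at 1.69. The GA 20-oxidases lay lower, with 0.919 per kilobase for GA20OX2 and 0.35 for GA20OX1, and GA2OX7 had 0.0424. GA3OX1 was first on this scale in all 4 groups and GA2OX7 last. Of the summed level per kilobase of the 5 GA 2-oxidases, GA2OX6 made up 52% in WT/WT, 58.4% in WT/cpd, 62.4% in cpd/WT, with 51.6% in cpd/cpd. The share of GA2OX1 was 10.1% in WT/WT, 15.7% in WT/cpd, 13.2% in cpd/WT, with 20.3% in cpd/cpd.

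**Figure D1:**
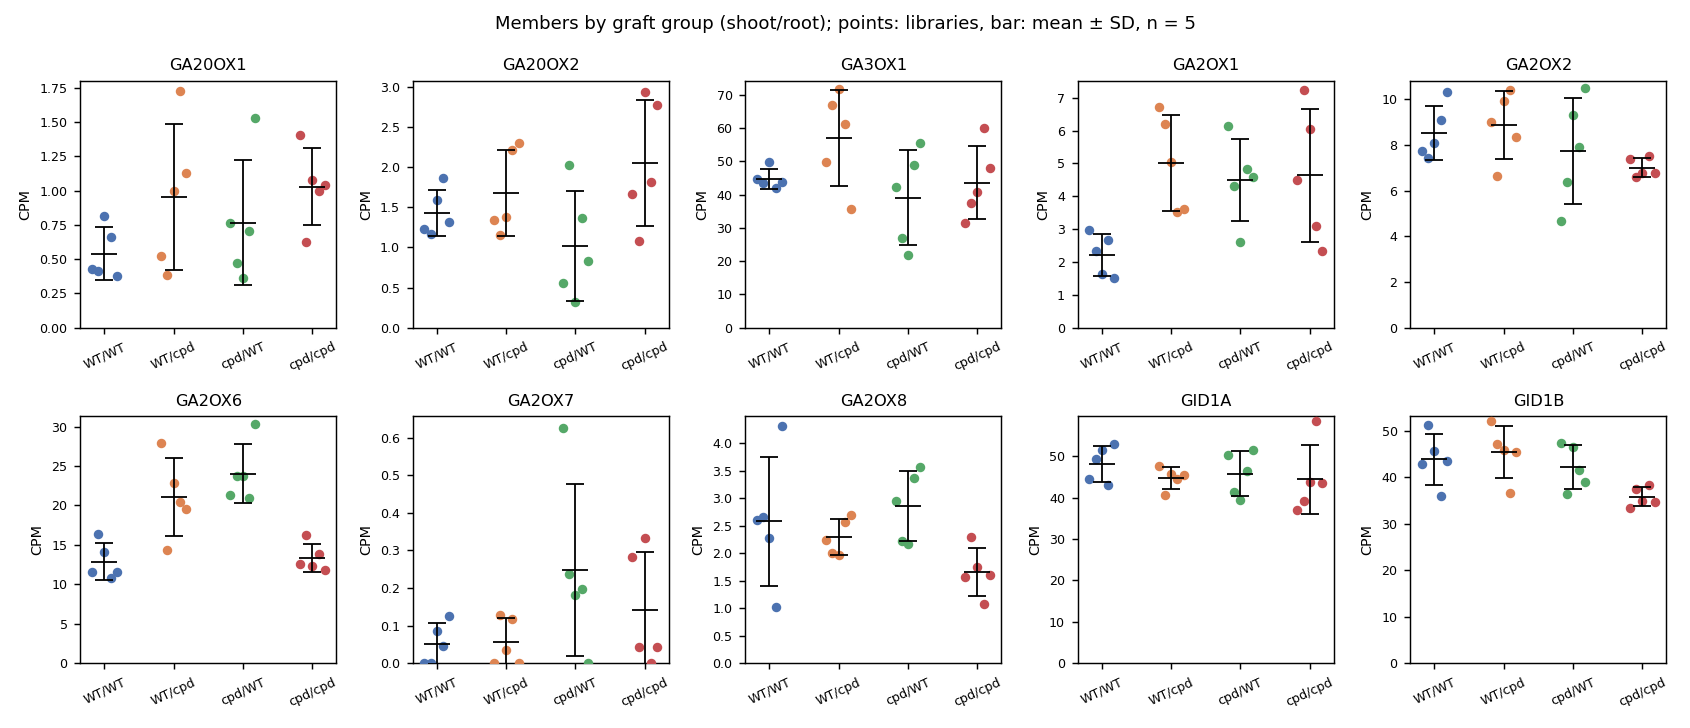
Level of each of the 10 genes in CPM (y axis, from 0) by graft group (shoot/root); points are libraries, the horizontal bar is the mean and the whiskers are 1 SD (n = 5). GA2OX6 is high in WT/cpd and cpd/WT and low in WT/WT and cpd/cpd, GA2OX1 is lowest in WT/WT, and GID1A overlaps in all groups.

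The inactivating enzyme GA2OX6 (AT1G02400, chromosome 1, 486800 to 489651, plus strand) rose when 1 graft partner was cpd and not when both were. In WT/WT its 5 libraries held 11.5, 16.4, 14.1, 10.8 and 11.6 CPM, and in cpd/cpd they held 12.6, 16.2, 12.3, 13.8 and 11.8 CPM. In WT/cpd they held 27.9, 14.4, 22.9, 20.4 and 19.6 CPM, and in cpd/WT they held 21.3, 23.7, 23.7, 21 and 30.3 CPM. Every cpd/WT library lay above every library of WT/WT and cpd/cpd, while WT/cpd replicate 2, at 14.4 CPM, fell inside their range. The means ± SD were 12.8 ± 2.33, 21 ± 4.93, 24 ± 3.75 and 13.3 ± 1.75 CPM from WT/WT through WT/cpd and cpd/WT to cpd/cpd (n = 5).

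Under a WT shoot, a cpd root carried 1.63-fold more GA2OX6 transcript than a WT root (log2 fold change 0.70 ± 0.15 SE, adjusted p = 0.008). Under a cpd shoot the direction was the opposite, with a log2 fold change of -0.85 ± 0.15 (adjusted p = 0.0087) and no overlap between the groups. On a WT root, a cpd shoot went with 1.87-fold more transcript (0.90 ± 0.15, adjusted p = 0.0033), again without overlap. On a cpd root, the cpd shoot went with less, by a log2 fold change of -0.65 ± 0.15 (adjusted p = 0.019). The interaction, which asks whether the effect of the root genotype differs between shoots, was -1.55 ± 0.22 on the log2 scale (adjusted p = 0.0028; 95% interval -2 to -1.1).

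In order of level, GA2OX6 ran WT/WT, cpd/cpd, WT/cpd and cpd/WT. The first pair did not differ beyond its spread (whole cpd graft against whole WT graft, log2 fold change 0.05, 95% interval -0.27 to 0.37, adjusted p = 0.88), nor did the last pair (cpd/WT against WT/cpd, 0.20, -0.12 to 0.51, adjusted p = 0.54). Averaged over shoots, the root effect was -0.07 (adjusted p = 0.79), and averaged over roots the shoot effect was 0.12 (adjusted p = 0.54), averages in which the opposite effects cancel. The interaction was called in 28 of 28 alternative fits, with adjusted p from 3.2e-08 to 0.0088, and the first 3 comparisons in 29 of 29. The call on a cpd root was lost in 5 of 29, at an adjusted p of 0.059 without WT/cpd replicate 1, 0.053, 0.055 and 0.052 without cpd/cpd replicates 1, 3 and 5, and 0.051 when only the compared groups were fitted.

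**Figure D2:**
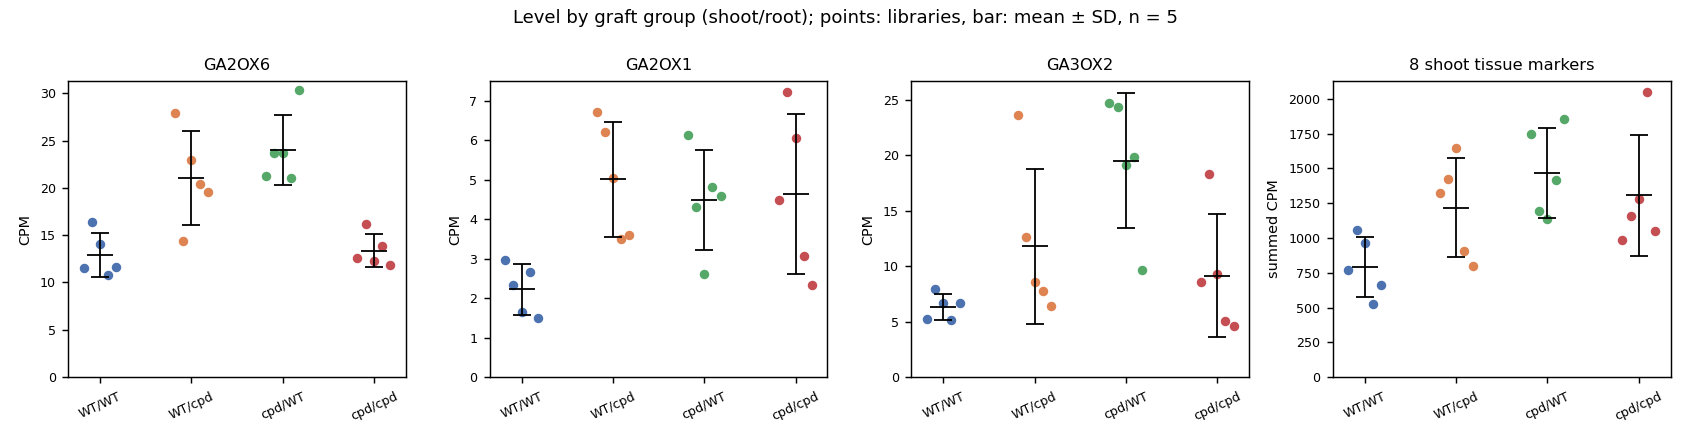
Levels in CPM of GA2OX6, GA2OX1 and GA3OX2, and the summed CPM of 8 shoot tissue markers, by graft group (shoot/root); points are libraries, bars the mean and whiskers 1 SD (n = 5). GA2OX6 is as low in cpd/cpd as in WT/WT, whereas the means of the summed shoot markers and of GA2OX1 are lowest in WT/WT.

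GA2OX1 (AT1G78440, chromosome 1, 29511561 to 29513100, minus strand), which inactivates active gibberellins, was lowest when both partners were WT. Its 5 libraries held 2.98, 2.33, 1.64, 2.66 and 1.5 CPM in WT/WT and 6.71, 6.21, 5.04, 3.51 and 3.6 CPM in WT/cpd. They held 6.14, 4.3, 2.62, 4.82 and 4.59 CPM in cpd/WT and 4.49, 7.22, 6.06, 3.08 and 2.33 CPM in cpd/cpd. All WT/cpd libraries lay above all WT/WT libraries, while cpd/WT and cpd/cpd each reached into the WT/WT range. GA2OX1 rose 2.22-fold with a cpd root under a WT shoot (log2 fold change 1.15 ± 0.30, adjusted p = 0.021). With a cpd shoot on a WT root it rose 2.01-fold (1.01 ± 0.30, adjusted p = 0.04), and in the whole cpd graft 2.07-fold (1.05 ± 0.30, adjusted p = 0.041). These 3 comparisons share the WT/WT libraries.

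Among WT/cpd, cpd/WT and cpd/cpd, GA2OX1 did not differ beyond the spread: the root effect under a cpd shoot was 0.04 (95% interval -0.55 to 0.64) and the shoot effect on a cpd root -0.10 (-0.69 to 0.5), on the log2 scale. The interaction was -1.11 ± 0.41 and was not called (adjusted p = 0.11). The call under a WT shoot was lost without WT/WT replicate 3 or 5 or WT/cpd replicate 1, with adjusted p from 0.05 to 0.059. The call on a WT root was lost without any one of WT/WT replicates 1, 2, 3 and 5 or cpd/WT replicates 1, 2, 4 and 5 (0.05 to 0.093), and that of the whole graft without WT/WT replicates 1, 2, 3 and 5, cpd/WT replicate 4 or cpd/cpd replicates 1, 2 and 3 (0.051 to 0.11).

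Shoot tissue markers moved with some of these calls. Under a WT shoot 3 of the 8 shoot markers rose with a cpd root (6.19% of all genes rose). On a WT root 7 of 8 rose with a cpd shoot (6.21%), and in the whole cpd graft 3 of 8 rose (3.72%). With a cpd shoot averaged over roots 3 of 8 rose (5.8% of all genes were called in either direction). Under a cpd shoot and on a cpd root 0 of 8 were called (1.86% and 4.66% of all genes). Their median log2 fold changes were -0.25 and 0.14 there, and GA2OX6 fell in both. In the interaction, where GA2OX6 was at -1.55, 3 of the 8 were called lower (CAB3, LHCB2.1 and RCA) and 0 higher (5.43% and 2.3% of all genes). The median over the 8 was -1.02 on the log2 scale. These markers cannot tell shoot tissue RNA from photosynthesis genes expressed in the root. The part of either in the rises of GA2OX1 and GA2OX6, in the interaction of GA2OX6, or in the changes of the pathway genes described later, was not tested.

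GA2OX2 (AT1G30040, chromosome 1, 10537457 to 10540044), another enzyme that inactivates active gibberellins, had similar group means and was called in no comparison. Its group means were 8.52 ± 1.19, 8.88 ± 1.49, 7.75 ± 2.32 and 7 ± 0.413 CPM from WT/WT through WT/cpd and cpd/WT to cpd/cpd. The libraries spread most widely in cpd/WT, from 4.65 to 10.5 CPM. Its farthest comparison from 0 was the shoot effect on a cpd root, with a log2 fold change of -0.34 (95% interval -0.7 to 0.01, adjusted p = 0.25).

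GA2OX8 (AT4G21200, chromosome 4, 11302682 to 11306770), one of the enzymes acting on precursors, was lowest in cpd/cpd. Its values were 1.57, 2.29, 1.75, 1.08 and 1.6 CPM in cpd/cpd against 2.95, 2.22, 2.17, 3.37 and 3.56 CPM in cpd/WT, so that only cpd/cpd replicate 2 reached the cpd/WT range. The root effect under a cpd shoot was -0.78 ± 0.27 and was not called (adjusted p = 0.12). It passed without the 4 least typical libraries (adjusted p = 0.03) and with sample weights in limma (0.0051). WT/WT spread most widely, from 1.02 to 4.32 CPM, and without its replicate 4 the whole cpd graft was called lower (log2 fold change -0.82, adjusted p = 0.027, against -0.62 and 0.19 with all libraries).

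GA2OX7 (AT1G50960, chromosome 1, 18889473 to 18891838), its close relative in function, was near the limit of detection and was not tested. It had 0, 0, 2, 1 and 2 counts in WT/WT, 0, 3, 1, 3 and 0 in WT/cpd, 18, 5, 4, 5 and 0 in cpd/WT and 9, 1, 9, 0 and 1 in cpd/cpd. The summed counts were 5, 7, 32 and 20, with 18 of the 32 counts of cpd/WT in replicate 1.

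Of the synthesis enzymes, none was called in any comparison. GA3OX1 (AT1G15550, chromosome 1, 5344388 to 5346342), which makes the active forms, had 44.8 ± 3.01 CPM in WT/WT, 57.1 ± 14.4 in WT/cpd, 39 ± 14.3 in cpd/WT, with 43.6 ± 10.9 in cpd/cpd. The 5 WT/WT libraries lay between 41.9 and 49.8 CPM, whereas WT/cpd ranged from 35.7 to 71.6 and cpd/WT from 21.8 to 55.4. The difference of cpd/WT from WT/cpd, -0.55 ± 0.23 on the log2 scale, had an adjusted p of 0.19.

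GA20OX2 (AT5G51810, chromosome 5, 21055179 to 21056881), a GA 20-oxidase that supplies the substrate of GA 3-oxidases, had 0.555, 2.03, 0.316, 1.37 and 0.827 CPM in cpd/WT against 1.66, 1.08, 2.94, 1.82 and 2.77 CPM in cpd/cpd. The groups overlapped through cpd/WT replicates 2 and 4. The log2 fold change was 1.02 ± 0.37 (95% interval 0.24 to 1.79) with an adjusted p of 0.14. It was called without cpd/WT replicate 2 (adjusted p = 0.044), without the 4 least typical libraries (0.018) and with sample weights in limma (0.016). WT/WT held 1.43 ± 0.289 and WT/cpd 1.68 ± 0.533 CPM, a log2 fold change of 0.24 (adjusted p = 0.75).

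GA20OX1 (AT4G25420, chromosome 4, 12990851 to 12992585), of the same enzyme class, had 6 to 45 counts per library. Its means were 0.54 ± 0.193, 0.955 ± 0.536, 0.767 ± 0.458 and 1.03 ± 0.28 CPM from WT/WT through WT/cpd and cpd/WT to cpd/cpd. The whole cpd graft stood 0.92 ± 0.41 above the whole WT graft on the log2 scale, with a 95% interval of 0.07 to 1.77 and an adjusted p of 0.19. At these counts a difference of this size was not called.

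The receptor GID1B (AT3G63010, chromosome 3, 23289243 to 23291486) was lowest in cpd/cpd. Its libraries held 33.4, 37.5, 34.9, 38.3 and 34.7 CPM there, against 52.1, 47.2, 45.9, 36.6 and 45.3 CPM in WT/cpd. Only WT/cpd replicate 4, at 36.6 CPM, reached into the cpd/cpd range. GID1B fell by 0.34 on the log2 scale with a cpd shoot on a cpd root (SE 0.10, 0.788-fold, adjusted p = 0.047). WT/WT held 42.9, 51.3, 45.6, 36 and 43.5 CPM and cpd/WT 47.3, 36.4, 46.5, 41.5 and 38.9 CPM. The whole cpd graft differed from the whole WT graft by -0.30 ± 0.10 (adjusted p = 0.074) and cpd/cpd from cpd/WT by -0.24 ± 0.10 (adjusted p = 0.18), neither of them called. The call was kept in 13 of 29 alternatives, and the adjusted p reached 0.12 without WT/cpd replicate 1 or cpd/cpd replicate 1. It was also lost without WT/WT replicate 1, 3 or 5, WT/cpd replicate 2, 3 or 5, cpd/WT replicate 4 or 5 or cpd/cpd replicate 2, 3 or 5 (0.05 to 0.11). The same held with no filter on low counts (0.056), when only the compared groups were fitted (0.06) and with a replicate block.

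GID1A (AT3G05120, chromosome 3, 1430363 to 1432844), the other receptor followed, held 48.2 ± 4.35, 44.8 ± 2.58, 45.8 ± 5.36 and 44.4 ± 8.41 CPM in the 4 groups. Its log2 fold changes over the 9 comparisons lay between -0.12 and 0.06 and none was called. The 95% interval of the root effect under a WT shoot was -0.33 to 0.11, and that of the whole graft -0.34 to 0.1.

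**Figure D3:**
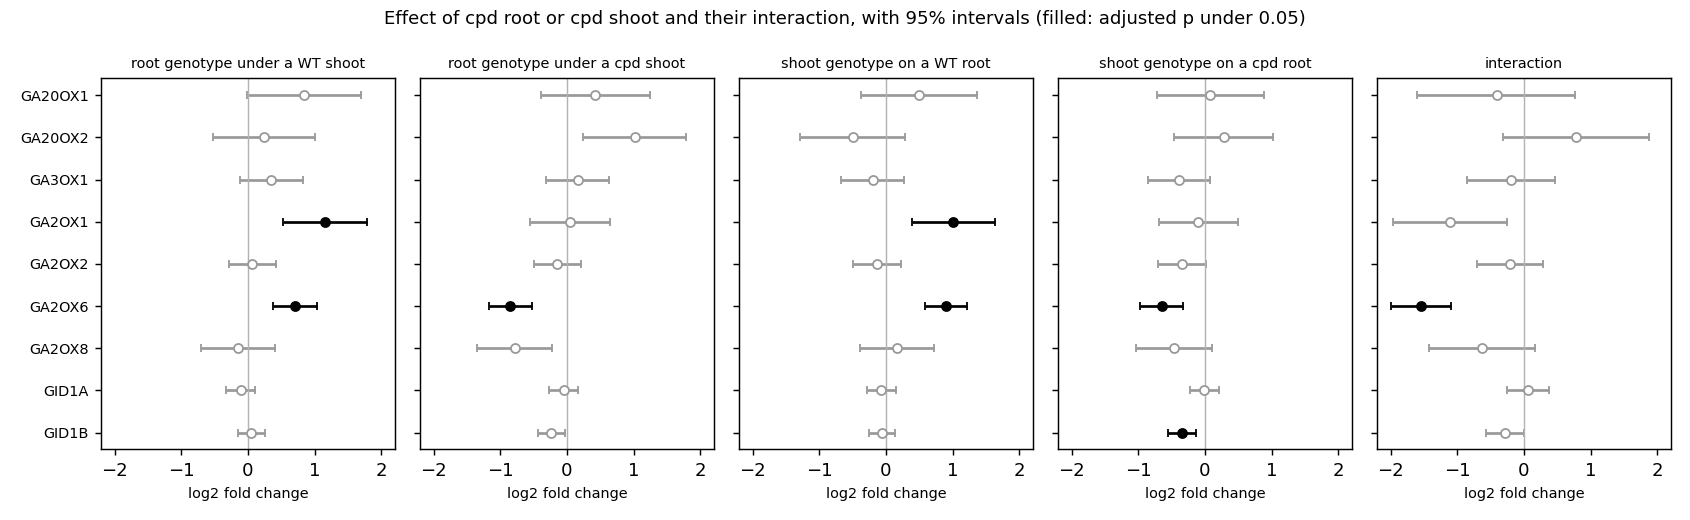
Log2 fold change (x axis) of the 9 tested genes in 4 comparisons of graft groups and in their interaction; points are estimates, lines are 95% intervals and filled points have an adjusted p under 0.05. GA2OX6 lies to the right of 0 in the comparisons with WT/WT and to the left in those with cpd/cpd, with an interaction of -1.55.

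The calls were then counted by comparison beside the share of all genes called; with 9 genes tested, each gene weighs heavily in a count, and nothing particular to the members is read from these. With a cpd root under a WT shoot 2 of 9 rose (9.45% of all genes tested were called, 6.19% higher). The median log2 fold change was 0.24 against -0.01 over all genes. With a cpd root under a cpd shoot 1 of 9 fell (1.86% called, 1.04% lower), with a median of -0.05 against 0.02. With a cpd shoot on a WT root 2 of 9 rose (9.11% called, 6.21% higher), with a median of -0.06 against -0.01. On a cpd root 2 of 9 fell with a cpd shoot (4.66% called, 3.25% lower), with a median of -0.34 against 0.02. Leaving out 1 library moved the number of genes called in these 4 comparisons to between 1037 and 2240 (from 1972), 86 and 690 (from 389), 893 and 2161 (from 1900) and 449 and 1267 (from 973). In the whole cpd graft 1 of 9 rose (6.36% called, 3.72% higher). The interaction was called for 1 of 9 (7.73% called), GA2OX6.

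No member was called between the reciprocal grafts (0 of 9, 4.46% of all genes), where 1 had an unadjusted p under 0.05 in edgeR and DESeq2 and limma with sample weights called 0. The average root effect was called for 0 of 9 (4.52% of all genes), with 4 at an unadjusted p under 0.05, 0 called in DESeq2 and 1 in limma with sample weights. The average shoot effect was called for 0 of 9 (5.8% of all genes), with 2 at an unadjusted p under 0.05, 0 called in DESeq2 and 1 in limma with sample weights.

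Around the members, 50 further genes of the pathway were listed in 7 lists, and 35 of them were tested. Under a WT shoot 4 rose and 5 fell with a cpd root (6.19% and 3.26% of all genes), and under a cpd shoot 3 rose and 0 fell (0.82% and 1.04%). With a cpd shoot 3 rose and 2 fell on a WT root (6.21% and 2.9%), and 2 rose and 0 fell on a cpd root (1.42% and 3.25%). In the whole cpd graft 2 rose and 1 fell (3.72% and 2.63%). The interaction was positive for 3 called genes and negative for 2 (2.3% and 5.43%). Median log2 fold changes over the 35 genes lay within 0.1 of 0 in these 6 comparisons.

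The enzymes of early synthesis showed no called change. GA2, GA3, KAO1 and KAO2, which turn the diterpene precursor into the first gibberellins, were called in 0 of the 9 comparisons (0 of 4 genes in each). Of all genes, 1.86% to 9.45% were called in these comparisons. At an unadjusted p under 0.05 in edgeR, 1 of the 4 passed under a cpd shoot, on a WT root, on a cpd root and in the interaction, and 0 passed in the other 5. DESeq2 called 1 of 4 in the interaction and 0 elsewhere, and limma with sample weights called 1 under a cpd shoot, on a cpd root and in the interaction. GA3 held 40.6 ± 2.84, 42.1 ± 1.44, 37.8 ± 3.89 and 38.7 ± 4.78 CPM in the 4 groups. GA2 libraries ranged from 18 to 22.1 CPM in WT/WT and 19 to 23.9 in cpd/cpd. They ranged from 15.5 to 21 in WT/cpd and 16.5 to 19.6 in cpd/WT, overlapping the other groups. GA1, the first enzyme of the branch, had at most 5 counts in a library and was not tested.

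GA3OX2 (AT1G80340), the second GA 3-oxidase tested, had an interaction of the same sign as GA2OX6. Unlike GA2OX6, it was not called by edgeR's test under a WT shoot, under a cpd shoot or on a cpd root. Under a cpd shoot, DESeq2 and limma with sample weights each called 1 of the 2 tested genes of its list, GA3OX2 and GA20OX3. The GA3OX2 libraries held 5.24, 7.95, 6.71, 5.14 and 6.63 CPM in WT/WT and 24.7, 24.3, 19.1, 19.8 and 9.64 CPM in cpd/WT. They held 23.6, 12.6, 8.53, 7.8 and 6.36 CPM in WT/cpd and 8.54, 18.3, 9.25, 5.03 and 4.58 CPM in cpd/cpd. All cpd/WT libraries exceeded all WT/WT libraries, and WT/cpd and cpd/cpd spread widely. GA3OX2 rose 3.08-fold with a cpd shoot on a WT root (1.62 ± 0.38, adjusted p = 0.015), a call kept in 28 of 29 alternatives. Its interaction was -1.96 ± 0.53 (adjusted p = 0.029) and was lost in 6 of 28 alternatives: without WT/WT replicate 1 or 4, WT/cpd replicate 1 or cpd/cpd replicate 1 or 5 (0.051 to 0.055) and without the 4 least typical libraries (0.11).

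Among the other inactivating enzymes, CYP714A2, a cytochrome P450 that modifies gibberellins and whose tandem copy CYP714A1 could share its reads, went the other way. It held 3.31 ± 0.662, 2.92 ± 0.382, 2.17 ± 0.374 and 3.71 ± 0.771 CPM from WT/WT through WT/cpd and cpd/WT to cpd/cpd. It rose with a cpd root under a cpd shoot (log2 fold change 0.77 ± 0.17, adjusted p = 0.028), fell with a cpd shoot on a WT root (-0.61 ± 0.17, adjusted p = 0.033) and had an interaction of 0.96 ± 0.24 (adjusted p = 0.021). The first 2 of these calls were kept in 23 and 19 of 29 alternatives, with adjusted p up to 0.1 without cpd/cpd replicate 5 and 0.12 without the 4 least typical libraries.

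Of the 10 genes of receptor and DELLA signalling, the third receptor GID1C was called in no comparison and ran from 25.1 ± 3.31 CPM in cpd/cpd to 28.7 ± 2.98 in WT/WT. The DELLA gene GAI held 38.7 to 45.4 CPM in cpd/cpd, above 26.4 to 36 CPM in cpd/WT. It rose with a cpd root under a cpd shoot (0.46 ± 0.09, adjusted p = 0.014; 0.056 without cpd/WT replicate 3 and 0.058 without cpd/cpd replicate 5) and had an interaction of 0.50 ± 0.13 (adjusted p = 0.022; 0.055 without cpd/cpd replicate 5). RGL2, a DELLA gene known from seed germination, rose with a cpd root averaged over shoots (0.67 ± 0.14, adjusted p = 0.0086), with means of 5.59 ± 1.68 and 4.35 ± 0.502 CPM on WT roots and 7.54 ± 1.65 and 8.09 ± 1.71 CPM on cpd roots. RGL1, also a DELLA gene, rose under a WT shoot (0.55 ± 0.17, adjusted p = 0.046), a call kept in 10 of 29 alternatives. RGA, the most abundant DELLA transcript per kilobase, held 42, 43.5, 41.2 and 43.6 CPM per kilobase and was not called.

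Among 4 tested transporters, NPF3.1, a gibberellin importer known from the root endodermis, was lowest in WT/WT at 13.1 ± 1.73 CPM against 19.6 ± 4.31 CPM in WT/cpd, 24.5 ± 6.33 in cpd/WT and 19.4 to 24.5 (mean 20.8) in cpd/cpd. It rose on a WT root with a cpd shoot (0.91 ± 0.17, adjusted p = 0.005) and in the whole cpd graft (0.67 ± 0.17, adjusted p = 0.022; 0.062 to 0.066 without WT/WT replicate 1 or 5 or cpd/cpd replicate 3). Under a WT shoot, 2 of the 4 transporters were called higher with a cpd root (6.19% of all genes rose). There every WT/cpd library of NPF3.1 but replicate 5 (12.4 CPM) lay above the WT/WT range of 11.1 to 15.5 CPM. The interaction of NPF3.1 was -0.82 on the log2 scale (adjusted p = 0.037 in edgeR's test). An antisense gene, AT1G68568, overlaps NPF3.1, and reads of the pair cannot be told apart because the strand setting of the counting is not given. NPF2.13, a nitrate transporter that also carries gibberellins, rose with a cpd shoot averaged over roots (0.52 ± 0.11, adjusted p = 0.0099). SWEET13, a sugar transporter that also carries gibberellins, rose 2.68-fold with a cpd root under a WT shoot (1.42 ± 0.41, adjusted p = 0.035), a call kept in 21 of 29 alternatives and at 0.12 without WT/cpd replicate 1.

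In the list of DELLA targets and partners, 7 genes were tested and the calls lay near the threshold, at adjusted p of 0.034 to 0.047. XERICO, a small RING-type protein encoded by a DELLA target, fell with a cpd root under a WT shoot (-0.50 ± 0.16, adjusted p = 0.047), a call kept in 8 of 29 alternatives. AT2G31730, a gene of the bHLH family, fell in that comparison (-0.45 ± 0.13, adjusted p = 0.036) and rose with a cpd shoot on a cpd root (0.48 ± 0.13, adjusted p = 0.043), kept in 20 and 12 of 29. IDD2, a zinc finger protein that binds DELLA proteins, fell with a cpd shoot on a WT root (-0.68 ± 0.19, adjusted p = 0.034), kept in 21 of 29.

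The GASA family, small cysteine-rich peptides named after gibberellin-stimulated transcripts, was called for 4 of its 5 tested genes with a cpd root under a WT shoot, where 1 rose and 3 fell (6.19% and 3.26% of all genes). GASA4 rose 1.57-fold (0.65 ± 0.14, adjusted p = 0.0077), from 172 ± 19.5 to 271 ± 52.6 CPM. GASA6 fell to 0.318-fold (-1.65 ± 0.35, adjusted p = 0.0074), from 7.94 ± 3.12 to 2.47 ± 1 CPM; a neighbouring gene, AT1G74675, overlaps it. GASA14 fell to 0.498-fold (-1.01 ± 0.24, adjusted p = 0.013), from 125 ± 17.7 to 62.2 ± 19.9 CPM. GASA1 fell to 0.764-fold (-0.39 ± 0.12, adjusted p = 0.04). The first 3 were called in 29 of 29 alternatives and GASA1 in 18 of 29. GASA4 also rose with a cpd root averaged over shoots (0.59 ± 0.10, adjusted p = 0.0018). GASA14 held 132 ± 36.9 CPM in cpd/cpd and 98.3 ± 36.5 in cpd/WT, a difference that was not called. Its interaction was 1.43 ± 0.34 (adjusted p = 0.015). With a cpd root under a cpd shoot 0 of the 5 GASA genes were called (1.86% of all genes), and with a cpd shoot on a cpd root 1 rose (1.42%).

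**Figure D4:**
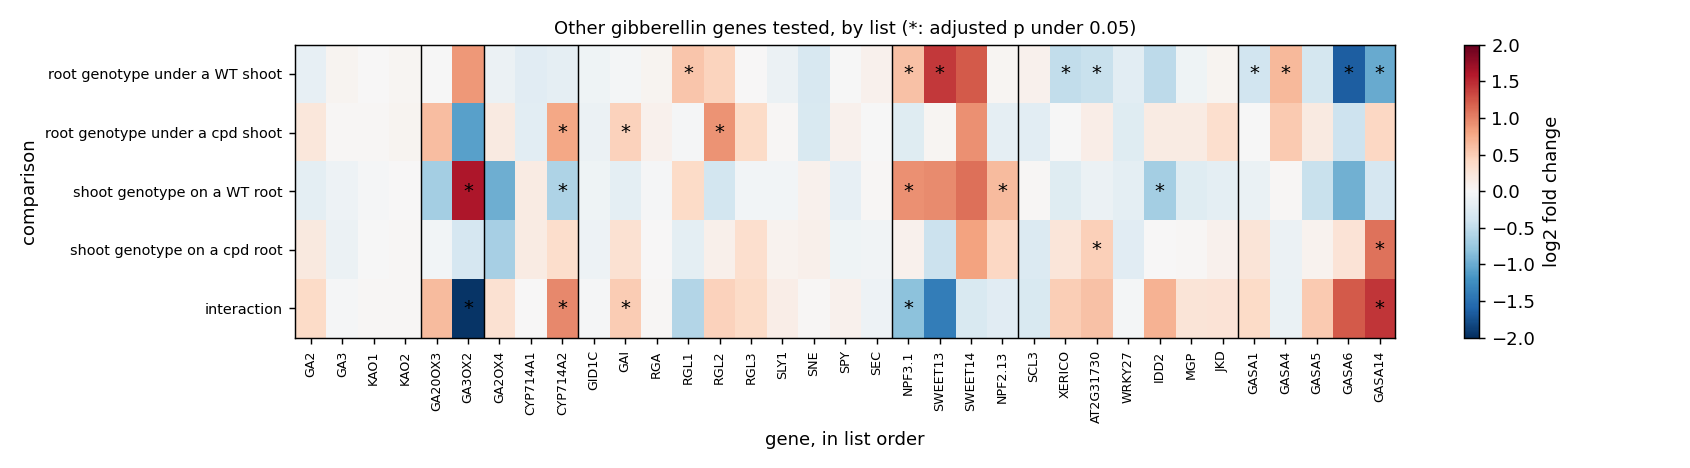
Log2 fold change (colour, red higher and blue lower) of the 35 tested pathway genes outside the 10 members (columns, in list order, vertical lines between lists) in 4 comparisons and the interaction (rows); stars mark an adjusted p under 0.05. GA3OX2 is red on a WT root and blue in the interaction, and GASA6 and GASA14 are blue in the top row.

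Over the 20 libraries, the gene whose log2 CPM followed that of GA2OX6 most closely was AT5G51920 (Pearson r = 0.927), followed by AT5G52020 and NTM1 (both 0.925). AT5G52020 held 6.04 CPM in WT/WT, 15.3 in WT/cpd, 23.9 in cpd/WT, with 6.66 in cpd/cpd on average. For GA2OX1 the closest were AT1G16310 and TT7, a flavonoid hydroxylase (both r = 0.863), and TT7 held 47.6, 86.2, 90.5 and 69.6 CPM. For GID1B it was AT3G25610 (0.91), and for GA3OX1 it was AFB5, an auxin receptor (0.878). GA20OX1 had the lowest best match, AT1G31460 at 0.778. These genes were picked for their r over the same libraries, so group means that follow those of the member result from the choice. The points share graft groups, library depth and scaling, so these values describe these libraries only. Between pairs of members r ran from -0.53 (GA20OX1 with GID1B) to 0.48 (GA3OX1 with GID1A).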

How the data were processed

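The deposited file is a single table of raw, not normalized counts of reads per gene in 20 libraries of whole roots. STAR and TAIR10 are named in the submitters' processing notes; neither the counting tool nor its strand setting is stated there. Per the labels' protocols, RNA came from a plant column kit and libraries from a directional kit. Each column was matched to its sample by the label that carries the column name (0 unmatched).

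Counts were tested in R 4.3.3 with edgeR 4.0.16: default filter by group (20862 of 32833 codes kept), TMM scaling, 1 mean per group over 20 libraries, robust quasi-likelihood F test, Benjamini-Hochberg adjustment over all genes tested. Standard errors come from the F statistic. CPM uses the scaled totals. There were 9 comparisons, and comparisons with a group in common share its libraries. Alternatives used DESeq2 1.42.0, limma 3.58.1, other filters, a replicate block and left-out libraries. No pair of libraries of a group agreed within sampling noise. The script was tested on simulated counts. Named genes were all members, every called gene of the 7 pathway lists and the genes most correlated with a member. Gene names, positions and promoters came from RefSeq TAIR10.1. The members and lists were chosen with earlier results of these data known.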

Additional observations from a re-analysis of the deposited data

Results flagged for a closer look

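The effect of the root genotype differed between shoots, by the interaction term of edgeR's quasi-likelihood test, for 6 genes. It was -1.55 on the log2 scale for GA2OX6 (adjusted p = 0.0028), -1.96 for GA3OX2 (0.029), 0.96 for CYP714A2 (0.021), 0.50 for GAI (0.022), -0.82 for NPF3.1 (0.037) and 1.43 for GASA14 (0.015).

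One library stood apart from the other 4 of its group, by Dixon's test on CPM, in 11 of 100 groups of 5, where chance flags about 1 in 20. None of these was one of the 10 members. The values in CPM, with the range of the other 4 libraries, were as follows. GAI had 28.1 in WT/cpd replicate 5 (34.1 to 36.3), RGL2 5.21 in cpd/WT replicate 5 (3.97 to 4.29) and NPF3.1 24.5 in cpd/cpd replicate 3 (19.4 to 20.1). NPF2.13 had 8.49 in WT/cpd replicate 3 (7.93 to 8.07) and AT2G31730 12.3 in WT/WT replicate 4 (8.62 to 9.28). In cpd/cpd replicate 4, XERICO had 40.1 (27.2 to 30), IDD2 44.6 (27.7 to 31.8) and GASA1 188 (208 to 216). GASA4 had 139 in WT/WT replicate 2 (176 to 190) and 362 in WT/cpd replicate 4 (233 to 267). CPD had 2.68 in WT/cpd replicate 4 (4.14 to 4.47).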

How the results depend on the processing

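No called value changed its sign. Of the single-gene values, 6125 kept their side of the threshold, 216 lost a call and 109 gained one. Leaving out 1 library gave 1 to 2 members called under a WT shoot, 1 to 2 under a cpd shoot, 1 to 2 on a WT root, 0 to 2 on a cpd root, 0 to 3 for the whole grafts, 0 for the reciprocal grafts, 0 to 1 for each average and 1 for the interaction. For the pathway genes the ranges were, in the same order, 3 to 9, 0 to 5, 3 to 5, 1 to 3, 0 to 7, 1 to 3, 3 to 6 and 2 to 3 for the root and shoot averages, and 2 to 7.

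Without the 4 least typical libraries, members called were 4 under a cpd shoot, 1 on a WT root, 4 for the whole grafts and 2 for the average root effect, and pathway genes called were 6, 12, 11 and 4 (under a cpd shoot, whole grafts, average root and shoot effects). With limma sample weights, members called were 4 under a cpd shoot, 5 for the whole grafts and 1 for each average, and pathway genes 10 under a cpd shoot, 9 on a WT root, 6 on a cpd root, 15 for the whole grafts, 9 and 7 for the root and shoot averages and 9 for the interaction. These 2 alternatives were chosen after seeing the data. DESeq2 called 2 members for the whole grafts and 6 pathway genes under a cpd shoot. With no filter, 1 member and 1 pathway gene were called on a cpd root. Fitting only the compared groups called 0 members on a cpd root and for the whole grafts, and 3 and 1 pathway genes under a WT shoot and on a cpd root. The causes were not tested.

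Over all genes, calls under a cpd shoot ran from 86 without cpd/WT replicate 3 to 5598 with limma sample weights (389 in the main test), and for the whole grafts from 647 to 6398 (1326). Leaving out 1 library gave 1037 to 2240 under a WT shoot (1972; fewest without WT/cpd replicate 1), 893 to 2161 on a WT root (1900; fewest without WT/WT replicate 1), 449 to 1267 on a cpd root (973; fewest without cpd/cpd replicate 3), 618 to 1116 between the reciprocal grafts (931), 691 to 1468 and 808 to 1729 for the root and shoot averages (944 and 1210) and 1050 to 2407 for the interaction (1613).

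Over 30 pairs of same-numbered libraries of different groups, r of the deviations from the group means ran from -0.514 to 0.433, and 5 exceeded 0.1. Among these were WT/WT with WT/cpd at replicates 2, 3 and 4 (0.197, 0.228 and 0.433). Differently numbered pairs were not compared, so whether the numbers mark shared batches cannot be told. With a replicate block 1 member was called on a cpd root, where GID1B was lost (adjusted p = 0.072), and 5 pathway genes under a WT shoot and 5 under a cpd shoot. Counts were low for GA2OX7, with at most 18 per library, and for GA20OX1, with 6 to 45. The part of low counts in the missing calls of GA20OX1 was not tested.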

Other observations

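Several gibberellin oxidases and the gibberellin methyltransferases were too low to test. GA20OX4 had 1, 4, 0 and 6 summed counts and GA20OX5 0, 1, 1 and 0, in the order WT/WT, WT/cpd, then cpd/WT and last cpd/cpd. GA3OX3 had 0, 0, 0 and 1, and GA3OX4, its paralog, 3, 0, 13 and 5. The inactivating enzyme GA2OX3 had 7, 6, 13 and 2, while GAMT1 had 0, 2, 2 and 0 and GAMT2, the other methyltransferase, 15, 28, 19 and 16. A count of 0 over a group allows up to 3 counts by counting error alone, so for genes at 0 to 3 summed counts no order between groups is read. In all 4 groups, therefore, GA20OX1 and GA20OX2 with GA20OX3, and GA3OX1 with GA3OX2, were the synthesis oxidases with enough counts for a test.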
